A study of Arabidopsis thaliana with 74 samples.

Results

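Small RNA (sRNA) reads were examined at 7 microRNA genes of *Arabidopsis thaliana* rosettes: MIR161, MIR159A, MIR166A, MIR156A, MIR167A, MIR168A and MIR319A. The genes were chosen by name, with earlier results of these data known, as 7 of 37887 annotated genes that overlap a counted window. Each was represented by the 200-bp windows of the CHH table that overlap its hairpin. The series holds 74 libraries. The 36 epiHybrids are F1 families from crosses of a male-sterile Col mother (msCol) with 36 different epiRILs. The 36 epiRILs are the fathers, which are inbred lines of Col background that carry hypomethylated haplotypes from a ddm1-2 founder, so that every epiHybrid holds such haplotypes in the heterozygous state. The 2 msCol libraries, msCol12 and msCol16, stand for the mothers, which carry the recessive ms1 mutation and a remnant of Ler DNA around MS1. All rosettes were taken 27 days after sowing, the rosettes of a line were pooled over the replicate cultivations, and each line gave 1 library. Replicates within a group are therefore different lines, and the spread given below holds differences between lines as well as technical differences. The study had picked the 36 families by the leaf area of the epiHybrids relative to their parents.

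A plant microRNA is cut from a hairpin transcript by the nuclease DCL1 with its partners HYL1 and SE, methylated by HEN1 and loaded into an ARGONAUTE protein, mostly AGO1, which then cuts or represses messenger RNAs that pair with it. In leaves, miR156 acts on SPL transcription factors and holds the plant in the juvenile phase. miR159 represses GAMYB-like MYB genes, and miR319 represses TCP genes that limit leaf growth. miR166 restricts the class III HD-ZIP genes that set the upper side of the leaf, miR167 acts on the auxin response factors ARF6 and ARF8, and miR161 targets genes of the pentatricopeptide repeat family. miR168 targets AGO1 itself, and so belongs to the feedback that sets the amount of the machinery on which all microRNAs depend.

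The guide sequences of the 7 genes are shown because they decide which reads can be told apart between loci. They were read from the RefSeq annotation and genome (TAIR10.1, same nuclear coordinates as the count tables), run 5′ to 3′, and carry the seed, bases 2 to 8, in capitals.
miR161.1 (chr1:17825731-17825751, plus strand): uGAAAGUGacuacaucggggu
miR161.2 (chr1:17825722-17825742, plus strand): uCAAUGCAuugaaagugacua
miR159a (chr1:27713234-27713254, minus strand): uUUGGAUUgaagggagcucua
miR319a (chr4:12353109-12353129, plus strand): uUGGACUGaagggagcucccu
miR166a-3p (chr2:19176241-19176261, plus strand): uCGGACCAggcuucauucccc
miR156a-5p (chr2:10676534-10676553, minus strand): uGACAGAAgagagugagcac
miR167a-5p (chr3:8108090-8108110, plus strand): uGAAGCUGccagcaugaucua
miR167a-3p (chr3:8108172-8108192, plus strand): gAUCAUGUucgcaguuucacc
miR168a-5p (chr4:10578652-10578672, plus strand): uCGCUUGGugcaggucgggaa
No pair of these sequences shared a seed. The miR161.1 and miR161.2 sequences overlap on 1 hairpin arm. The miR156a-5p sequence stood at 6 places of the nuclear genome, all inside MIR156 genes (A to F), and miR166a-3p at 7 places (MIR166A to MIR166G). The miR167a-5p, miR168a-5p and miR319a sequences each had 2 perfect copies, the second in MIR167B, MIR168B and MIR319B. The miR161.1, miR161.2, miR159a and miR167a-3p sequences each had 1. Reads of a sequence with several copies cannot be assigned to a locus by sequence, so a count at such a gene rests on where the authors' aligner placed them.

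The name of the set, abundant leaf microRNA genes, held for 6 of the 7 genes. Over equal windows of 200 bp, and by mean count over the 74 libraries, the window over MIR167A ranked 5 among 594835 non-overlapping windows with 363370 counts, and that over MIR159A ranked 7 with 267399 counts. The highest window of MIR161 ranked 12, that of MIR168A 15, that of MIR166A 21 and that of MIR319A 120, which held 16499 counts. The window over MIR156A ranked 16794 with 138.8 counts. Other loci with the same guide held more reads over both arms, with 12700 counts on average at MIR156D and 11700 counts at MIR156B.

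The libraries had 20995764 to 27084303 counts in epiHybrids, 24515153 to 26777462 in epiRILs, and 25212867 and 23979424 in msCol12 and msCol16. The 7 genes together took 3.87% to 6.0% of the counts in epiHybrids, 3.79% to 6.1% in epiRILs and 3.84% and 4.50% in the msCol libraries. Windows over all annotated microRNA genes took 9.17% to 21.5% in epiHybrids, 8.74% to 22.6% in epiRILs and 13.6% and 14.7% in the msCol libraries. Annotated rRNA, tRNA, snRNA and snoRNA genes took 14.3% to 26.0% in epiHybrids and 13.4% to 26.7% in epiRILs. Among epiRILs the correlation r of this share with the gene level was -0.47 for MIR156A and -0.43 for MIR319A, and between -0.3 and 0.04 for the remaining genes. Among epiHybrids r was -0.11 for MIR156A and -0.22 for MIR319A. These relations were not tested. The scaling factor TMM (trimmed mean of M-values, which sets library sizes equal for the bulk of windows) was 0.733 in msCol16, below that of all other libraries, and 1.09 in msCol12. In 387 windows near MS1, on a scale with the msCol level at its lower end, epiHybrids had a median position of 0.493 and epiRILs of 1.01. Families 12 and 568 had the opposite order, with the libraries labelled epiHybrid at 1.01 and 1.2 and the libraries labelled epiRIL at 0.653 and 0.610. The tests between groups, the relations between genes and between fathers and epiHybrids, and the arm ratios were therefore also computed without these families, while the nearest genes were taken from all lines.

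At most hairpins the reads lay where the mature microRNAs are annotated. At MIR159A, windows holding miR159a had 267399 counts and the window that begins past it had 155.0, which is 0.058% of the highest window. At MIR166A the 3p arm, which carries the guide, took a median of 96.7% of the reads of both arms in epiHybrids, 96.4% in epiRILs and 98.0% and 98.1% in the msCol libraries. At MIR167A the guide is on the 5p arm, and the 3p arm took 5.45% (2.05% to 13.7%) in epiHybrids, 4.49% (1.14% to 16.2%) in epiRILs and 5.19% and 5.22% in msCol. The ratio of 3p to 5p reads at MIR167A differed between an epiHybrid and its epiRIL by 0.34 ± 0.16 on the log2 scale (SE, n = 36 families), higher in 22 of 36 families, and did not pass the correction over the 6 hairpin comparisons, which were added after the data had been seen (two-sided sign-flip permutation test, p = 0.038, adjusted p = 0.23). The other 5 comparisons had unadjusted permutation p-values between 0.35 and 0.95.

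**Figure D1:**
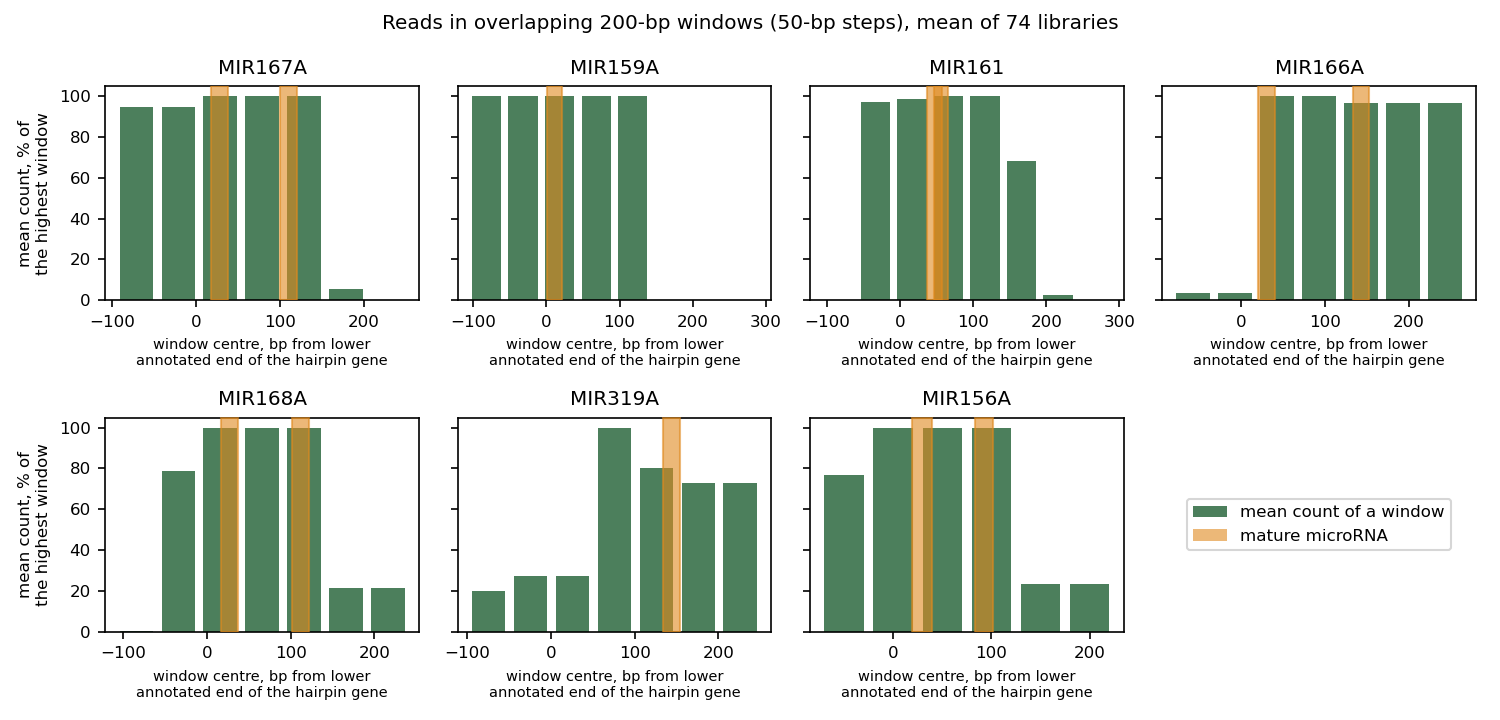
Mean count of each overlapping 200-bp window as a percentage of the highest window of the gene (bars), by the distance of the window centre from the lower annotated end of the gene in bp, with the annotated mature microRNAs shaded. Windows past miR159a drop to 0.058% of the highest, and windows before the 3p arm of MIR166A hold 3.55%.

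The remaining hairpins were less one-sided. MIR168A had 21.9% of its arm reads on the 3p side in epiHybrids, 20.9% in epiRILs and 19.2% and 17.8% in msCol. MIR156A, whose guide is on the 5p arm, had most of the reads placed at this locus on the 3p arm, 76.4% in epiHybrids, 76.5% in epiRILs and 85.9% and 80.6% in msCol. The miR156a-3p sequence has 1 copy in the genome, whereas the 5p sequence has 6. MIR319A had reads outside its annotated mature sequence: windows that end before miR319a held up to 27.3% of the highest window. At MIR161 the reads that reached the last base of miR161.1, which miR161.2 does not cover, made up 67.7% of the reads in the window that ends 1 base before it in epiHybrids, 67.7% in epiRILs and 73.8% and 73.9% in msCol. The highest value among epiHybrids was 73.9% and the highest among epiRILs 72.7%, so the msCol libraries stood at the upper end of both groups.

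The level of each gene was taken as TMM-normalised CPM (counts scaled to a common library size), summed over its non-overlapping windows, and an epiHybrid was compared with its own father by edgeR's quasi-likelihood test with the family as a block. Of 29172 annotated genes tested, 4.25% passed an adjusted p of 0.05, with 2.02% higher and 2.22% lower in epiHybrids. Of the 7 microRNA genes 1 passed, MIR168A, which was lower in epiHybrids. The number at an unadjusted p under 0.05 was 3, with MIR159A and MIR156A higher in epiHybrids, where 14.3% of all genes tested were under that value. The median log2 difference over the 7 genes was 0.00, as over all genes tested. Leaving out families 12 and 568 changed the calls to 2 genes, MIR159A and MIR156A, both higher, while MIR168A missed the threshold. In that fit 5.18% of all genes passed. In bulk rosettes, fewer cells that make a microRNA and less of it per cell cannot be told apart.

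**Figure D2:**
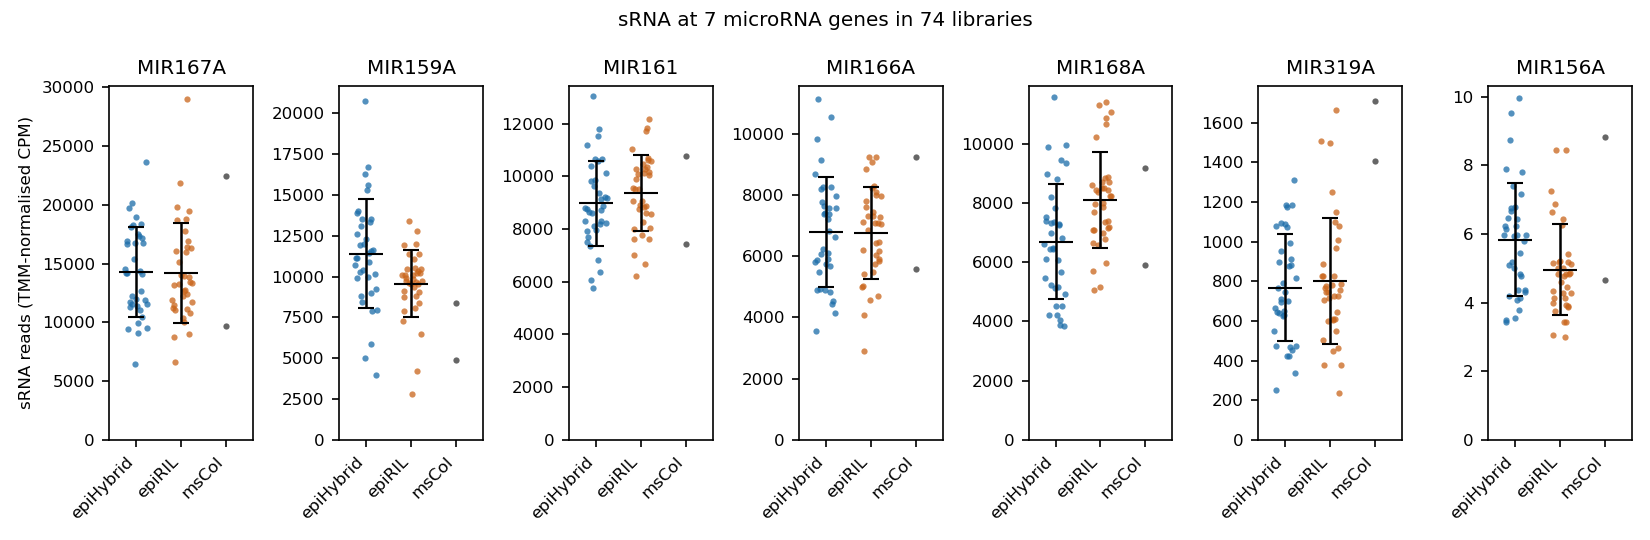
TMM-normalised CPM of the 7 genes on linear axes from 0, with 1 point per library for 36 epiHybrids, 36 epiRILs and 2 msCol plants; lines and bars give mean and SD of the groups of 36. MIR168A averaged 6692 CPM in epiHybrids and 8097 CPM in epiRILs, and at MIR319A all epiHybrids lay below both msCol libraries on this scale, against 28 of 36 with library size as the only scaling.

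MIR168A, the source of the microRNA that targets AGO1, had 3844 CPM in the lowest, 6552 CPM in the median and 11560 CPM in the highest epiHybrid. The epiRILs had 5049, 8105 and 11410 CPM, and msCol12 and msCol16 had 5902 and 9191 CPM. The ranges of epiHybrids and epiRILs overlapped for most of their length, with the epiHybrids reaching lower. The epiHybrid was below its father in 25 of 36 families, by 0.30 ± 0.09 on the log2 scale (SE; edgeR adjusted p = 0.039). The call was close to the threshold: the edgeR adjusted p was 0.065 without families 12 and 568, 0.077 without the family block and 0.084 with library size as the only scaling. It was 0.051 with the CG table, 0.069 with the CHG table and 0.063 with library size without structural RNA and microRNA windows. MIR168A passed with DESeq2 (DESeq2 adjusted p = 0.0089) and, by edgeR, with median-of-ratios scaling (0.03), shifted windows (0.036) and no filter on low counts (0.046). Log2 differences lay between -0.32 and -0.25 over the 10 alternatives. The largest gap was in family 426, where the epiHybrid had 4203 CPM and the epiRIL 11410 CPM, and the opposite extreme was family 275 with 9432 CPM in the epiHybrid and 5152 CPM in the epiRIL. The second copy of the miR168 sequence, MIR168B, held 140.2 ± 28.4 CPM in epiHybrids and 151.1 ± 26.5 CPM in epiRILs (SD, n = 36 each, edgeR adjusted p = 0.39). The sum over both loci gave -0.30 ± 0.09 (edgeR adjusted p = 0.039). Nearly all reads of that sum lie at MIR168A, so it repeats the value of MIR168A and is no separate support.

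MIR159A, the main source of miR159, had 3971 CPM in the lowest, 11290 CPM in the median and 20770 CPM in the highest epiHybrid. In epiRILs the values were 2831, 9808 and 13410 CPM, and in msCol12 and msCol16 4915 and 8393 CPM. The epiHybrids reached higher than any epiRIL, and 26 of 36 epiHybrids lay above their father. The log2 difference was 0.23 ± 0.09 (SE; edgeR adjusted p = 0.17) with all families and 0.28 (edgeR adjusted p = 0.044) without families 12 and 568. Family 568 had the most negative ratio, with 3971 CPM in the library labelled epiHybrid and 9377 CPM in that labelled epiRIL. Family 379 had the most positive, with 10690 CPM in the epiHybrid and 2831 CPM in the epiRIL.

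MIR156A differed in the same direction at a much lower count. It had 3.43, 5.95 and 9.97 CPM in the lowest, median and highest epiHybrid, against 2.99, 4.83 and 8.46 CPM in the epiRILs, and 4.66 and 8.82 CPM in msCol12 and msCol16. The ranges were nearly the same, and 24 of 36 epiHybrids were above their father. The log2 difference was 0.23 ± 0.10 (SE, edgeR adjusted p = 0.22), and 0.30 without families 12 and 568 (edgeR adjusted p = 0.036). Summed over the loci MIR156A to MIR156F, which hold the same guide, it was 0.25 ± 0.08 (edgeR adjusted p = 0.074). Most reads of that sum lay at MIR156D and MIR156B, with means of 564.7 and 470.2 CPM in epiHybrids. The sum therefore describes those loci more than MIR156A. In family 12 the library labelled epiHybrid had 3.43 CPM and that labelled epiRIL 8.45 CPM, the most negative ratio of this gene.

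The remaining 4 genes had log2 differences between epiHybrids and epiRILs within 0.06 of 0. MIR167A, a regulator of the auxin response, had 6444, 14170 and 23680 CPM in the lowest, median and highest epiHybrid and 6630, 13310 and 28990 CPM in epiRILs, with 9710 and 22460 CPM in msCol12 and msCol16. Its log2 difference was 0.02 ± 0.10 (edgeR adjusted p = 0.97). The highest epiRIL was line 454, which had more than the highest library labelled epiHybrid, that of family 568, whose label is in doubt. Without families 12 and 568 the highest epiHybrid had 20170 CPM.

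MIR161 had 5749, 8796 and 13070 CPM in the lowest, median and highest epiHybrid and 6234, 9519 and 12180 CPM in epiRILs, with 7425 and 10770 CPM in msCol12 and msCol16. It was the least variable of the 7 genes, with a coefficient of variation of 18.0% among epiHybrids and 15.4% among epiRILs. Its log2 difference was -0.06 ± 0.06 (edgeR adjusted p = 0.77). MIR166A had 3564, 6715 and 11150 CPM in epiHybrids and 2901, 7065 and 9238 CPM in epiRILs, with 5574 and 9229 CPM in msCol12 and msCol16, and a difference of 0.00 ± 0.08 (edgeR adjusted p = 1).

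**Figure D3:**
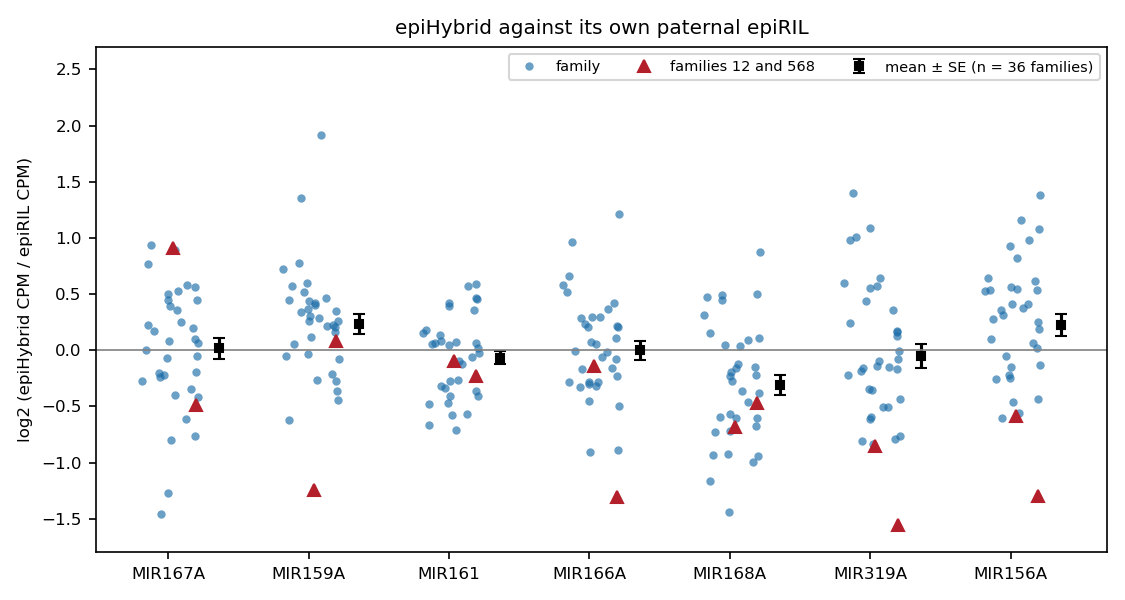
Log2 ratio of epiHybrid to epiRIL CPM within each of 36 families (points; triangles are families 12 and 568), with the mean and SE of the 36 ratios (squares). The ratios of MIR168A lie below 0 in 25 of 36 families and those of MIR159A above 0 in 26.

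MIR319A, from the group that acts on TCP genes, lay mostly below its level in the mother. It had 253.8, 728.4 and 1310 CPM in the lowest, median and highest epiHybrid, 236.2, 752.8 and 1663 CPM in epiRILs, and 1712 and 1409 CPM in msCol12 and msCol16. The lowest library labelled epiHybrid was that of family 12, and without families 12 and 568 the lowest had 420.8 CPM. Every epiHybrid and 33 of 36 epiRILs were below both msCol libraries in TMM-normalised CPM. With library size as the only scaling msCol12 and msCol16 had 1863 and 1032 CPM, and 28 of 36 epiHybrids and 29 of 36 epiRILs were below both. The log2 difference was -1.02 ± 0.36 for epiHybrids against msCol (SE; unadjusted p = 0.0054, edgeR adjusted p = 0.11) and -0.96 ± 0.36 for epiRILs against msCol (unadjusted p = 0.0093, edgeR adjusted p = 0.13). Neither passed the threshold, and both comparisons share the same 2 maternal libraries. Between epiHybrids and epiRILs the difference was -0.05 ± 0.11 (edgeR adjusted p = 0.92). MIR319B, which shares the guide, had 285.3 ± 117 CPM in epiHybrids, 304.7 ± 121 CPM in epiRILs (SD, n = 36 each) and 532.3 and 431.7 CPM in msCol12 and msCol16.

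No gene of the 7 passed in the comparisons with msCol or with the mid-parent value, by edgeR with the TMM scaling or by DESeq2. The number at an unadjusted edgeR p under 0.05 was 1 of 7 for epiRILs against msCol (16.8% of all genes), 2 for epiHybrids against msCol (15.7%) and 2 against the mid-parent value (14%). Of 29174 genes, 3.50% passed for epiRILs against msCol (0.703% higher and 2.79% lower in epiRILs), 2.52% for epiHybrids against msCol (0.398% higher and 2.13% lower in epiHybrids) and 1.34% for epiHybrids against the mid-parent value (0.332% higher and 1.01% lower). Of the epiHybrids 31 of 36, and of the epiRILs 30 of 36, had more MIR159A reads than both msCol libraries, and 34 and 33 with library size as the only scaling. The log2 difference was 0.78 ± 0.33 for epiHybrids against msCol (edgeR adjusted p = 0.21) and 0.52 ± 0.32 for epiRILs against msCol (edgeR adjusted p = 0.42). It was 0.46 without msCol12 and 1.21 without msCol16 for epiHybrids, and 0.21 without msCol12 and 0.94 without msCol16 for epiRILs. For MIR161, MIR166A, MIR156A and MIR167A most lines of each group lay between the 2 msCol libraries in TMM-normalised CPM, whereas at MIR168A 13 of 36 epiHybrids were below both and 5 above both. This order depended on the scaling of the msCol libraries, which differed by 1.45-fold at MIR161 and by 2.31-fold at MIR167A with TMM, and by 1.02-fold and 1.56-fold with library size only. With library size only, 27 of 36 epiHybrids and 28 of 36 epiRILs were above both msCol libraries at MIR161, and 17 of 36 epiHybrids and 29 of 36 epiRILs at MIR168A. The signs of the differences from msCol of these 5 genes were not stable, as each turned under at least 1 alternative scaling, count table or choice of msCol library.

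Against the mid-parent value (MPV) of each trio, MIR159A in epiHybrids deviated by -50.5% in the lowest family, 41.0% in the median and 182% in the highest, and 25 of 36 epiHybrids were above both parents. The lowest value was that of family 568, and the lowest without families 12 and 568 was -25.1%. MIR319A deviated by -78.0%, -39.3% and 11.3% (lowest without these families -60.8%), with 22 of 36 epiHybrids below both parents. MIR168A deviated by -55.7%, -16.9% and 48.6%, with 24 of 36 epiHybrids below both parents, and with library size as the only scaling its median was -7.9%, with 17 of 36 below both. These deviations are descriptions, because all trios share the mean of the same 2 maternal libraries. On the log scale and over the groups, the contrast with the MPV was 0.51 ± 0.18 for MIR159A (edgeR adjusted p = 0.14), -0.54 ± 0.20 for MIR319A (edgeR adjusted p = 0.18) and -0.22 ± 0.14 for MIR168A (edgeR adjusted p = 0.51). With library size as the only scaling the value for MIR159A was 0.67 and passed (edgeR adjusted p = 0.045).

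The lines of a group differed more at some genes than at others. The highest epiHybrid exceeded the lowest by 2.27-fold at MIR161 and by 5.23-fold at MIR159A, and the highest epiRIL exceeded the lowest by 1.95-fold at MIR161 and by 7.04-fold at MIR319A. The SD of log2 CPM of MIR168A was 0.425 among epiHybrids and 0.292 among epiRILs, a difference that did not pass the correction over the 7 genes (two-sided permutation test within families, p = 0.037, adjusted p = 0.26). For the other 6 genes the unadjusted permutation p-values were between 0.45 and 0.92. Over the 36 families, the level in the epiHybrid was related to that of its father at MIR319A with the highest Pearson r and at MIR159A with the highest Spearman rho. For MIR319A r was 0.37 (permutation p = 0.025, adjusted p = 0.18) and rho was 0.33 (permutation p = 0.046, adjusted p = 0.16), with r = 0.28 without the 2 fathers farthest from the median. For MIR159A r was 0.28 (permutation p = 0.098, adjusted p = 0.34) and rho was 0.37 (permutation p = 0.026, adjusted p = 0.16), with r = 0.16 without the 2 farthest fathers. None of the 7 relations passed the correction.

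Among the 21 pairs of the 7 genes, MIR166A and MIR168A varied together in both groups. In epiHybrids r was 0.57 (permutation p = 0.0003, adjusted p = 0.0063) and rho 0.58 (permutation p = 0.00029, adjusted p = 0.0061), and r was 0.62 without the 2 libraries farthest from the median of MIR166A. In epiRILs r was 0.56 (permutation p = 0.00042, adjusted p = 0.0088) and rho 0.64 (permutation p = 5e-05, adjusted p = 0.001), and r was 0.68 without the 2 farthest libraries. The genes of a pair share the library and its scaling. Whether the relation follows the share of all microRNA genes in a library was not tested. Without families 12 and 568 r was 0.66 in epiHybrids (adjusted p = 0.00063) and 0.54 in epiRILs (adjusted p = 0.016). With library size as the only scaling r was 0.54 in epiHybrids (adjusted p = 0.017) and 0.47 in epiRILs, where it no longer passed (adjusted p = 0.087), while rho still did (adjusted p = 0.0046). MIR166A and MIR167A were related in epiRILs by r (0.54, permutation p = 0.00084, adjusted p = 0.0088) and not by rho (0.44, permutation p = 0.0085, adjusted p = 0.083), with r = 0.37 without the 2 farthest libraries. No other pair passed in either group.

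**Figure D4:**
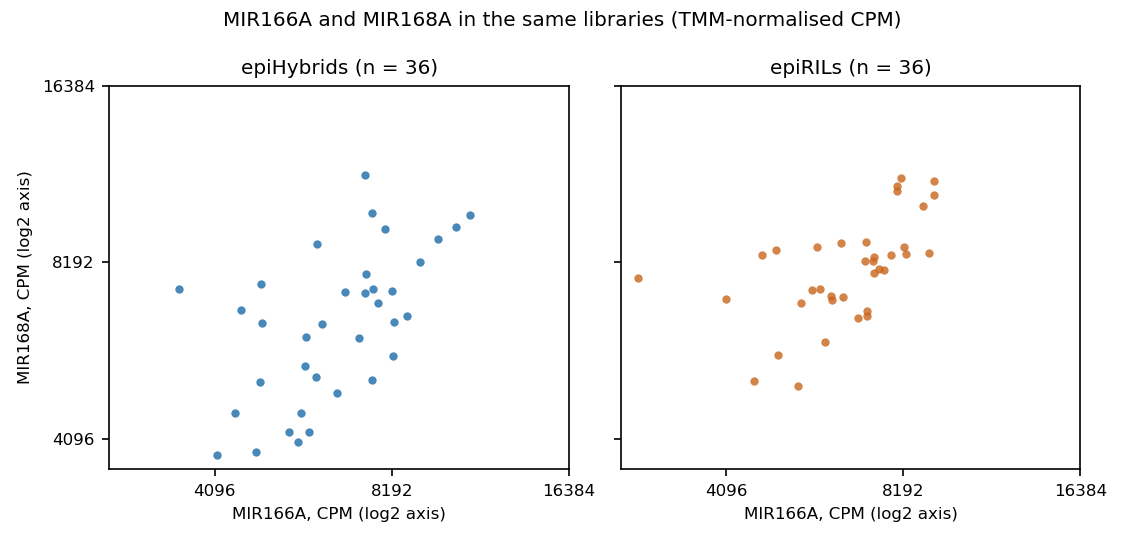
MIR166A (x axis) and MIR168A (y axis) in TMM-normalised CPM, both on log2 axes, with 1 point per line for 36 epiHybrids (left) and 36 epiRILs (right). Libraries high in one gene tended to be high in the other, with r = 0.57 in epiHybrids and r = 0.56 in epiRILs.

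Over the 72 libraries of epiHybrids and epiRILs, the gene most like a member was a relative of it for 5 of the 7 genes, and 9 of the 21 nearest genes, 3 per member, were relatives. By Pearson's r of log2 CPM, MIR159A was closest to MIR159B (0.89) and MIR159C (0.76), which carry the same seed, followed by WHY3 (0.61). MIR319A was closest to MIR319B (0.85), MIR319C (0.80) and the tRNA gene AT1G43820 (0.67). MIR166A was closest to MIR165B (0.84) and MIR165A (0.76), whose microRNA has the seed of miR166, and to AT1G08765 (0.76), which overlaps MIR165A. MIR156A was closest to MIR156D (0.64), the overlapping gene AT5G10946 (0.64) and MIR156C (0.62), and MIR167A to MIR167B (0.59), CYP71B20 (0.54) and MIR845A (0.49). The nearest gene of MIR168A was MIR171A (0.77), the source of a microRNA that targets SCARECROW-like genes, followed by the pseudogene AT1G41790 (0.70) and AT4G04745 (0.66). MIR161 had the long non-coding RNA gene AT5G07325 (0.51), AT4G02450 (0.50) and AT5G06110 (0.49). These are descriptions: perfect or near copies can receive the same reads.

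Of 29 annotated relatives of the 7 genes 28 were tested, and 2 were higher in epiHybrids than in epiRILs and 0 lower, both in the miR156 and miR157 group. MIR156D, which holds the same guide as MIR156A, had 197.0, 549 and 1020 CPM in the lowest, median and highest epiHybrid and 278, 405 and 714 CPM in epiRILs, with 527.8 and 927.9 CPM in msCol12 and msCol16. It was higher than the father in 31 of 36 epiHybrids, by 0.41 ± 0.10 on the log2 scale (edgeR adjusted p = 0.0047). Against the mid-parent value the difference of MIR156D was 0.03 ± 0.16 (edgeR adjusted p = 0.97), and for epiRILs against msCol it was -0.79 ± 0.27 (edgeR adjusted p = 0.078). MIR157A, which carries a guide of the same group with another seed, had 12.6, 58.9 and 119 CPM in epiHybrids and 19.4, 40.4 and 98.8 CPM in epiRILs, with 56.6 and 97.6 CPM in msCol12 and msCol16. It was higher in 30 of 36 families, by 0.52 ± 0.12 (edgeR adjusted p = 0.0046). Against the mid-parent value the difference of MIR157A was 0.09 ± 0.21 (edgeR adjusted p = 0.92), and for epiRILs against msCol it was -0.9 ± 0.35 (edgeR adjusted p = 0.15). The other abundant loci of this group did not pass: MIR156B had 0.10 (edgeR adjusted p = 0.67) and MIR157C 0.08 (edgeR adjusted p = 0.62). The 5p sequence of MIR157A also stands in MIR157B and MIR157C, and its 3p sequence in MIR157B. Such reads cannot be assigned to MIR157A by sequence, and whether the difference at MIR157A rests on their placement was not tested. Of all 293 other microRNA genes tested, these relatives included, 20 were higher and 13 lower in epiHybrids, with a median log2 difference of 0.05. Over all 29172 genes tested, 2.02% were higher and 2.22% lower, the shares to set beside these counts and beside that of the relatives.

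Target genes of 6 of the 7 microRNAs were read for sRNA over the whole gene, not for messenger RNA, and those of miR161 were not analysed here. Between epiHybrids and epiRILs, where 4.25% of all genes tested passed, 1 of the 30 target genes tested passed, the miR168 target AGO1. It had 10.5, 15.0 and 21.2 CPM in the lowest, median and highest epiHybrid, 9.26, 12.7 and 19.4 CPM in epiRILs, and 14 and 22.2 CPM in msCol12 and msCol16. The epiHybrid was above its father in 31 of 36 families, by 0.24 ± 0.06 on the log2 scale (edgeR adjusted p = 0.018), a direction opposite to that of MIR168A. The difference from the epiRILs passed under all 10 alternatives, with log2 values from 0.22 to 0.30. Against the mid-parent value, AGO1 sRNA in epiHybrids differed by -0.0 ± 0.1 (edgeR adjusted p = 0.99). The log2 difference was -0.47 ± 0.18 for epiRILs against msCol (edgeR adjusted p = 0.13) and -0.24 ± 0.18 for epiHybrids against msCol (edgeR adjusted p = 0.56). The epiHybrids were thus higher than their fathers, while no difference from the mid-parent value was called. That contrast rests on the 2 msCol libraries, of which msCol16 had the lowest TMM factor (0.733). For AGO1 it is given with the TMM scaling only, so its place relative to the mid-parent value remains undecided. None of the 11 SPL genes, 5 tested MYB genes, 5 TCP genes, 5 class III HD-ZIP genes and 3 miR167 targets passed between epiHybrids and epiRILs. ARF6 had the most sRNA of these, with 3.39 ± 0.436 CPM in epiHybrids and 3.16 ± 0.468 CPM in epiRILs (SD, n = 36 each; edgeR adjusted p = 0.29). Of 12 genes of the microRNA machinery AGO1 alone passed, against the same 4.25% of all genes tested. DCL1, itself a microRNA target, had 20.2 ± 5.50 CPM in epiHybrids and 18.1 ± 5.07 CPM in epiRILs (SD, n = 36 each; edgeR adjusted p = 0.44). For epiRILs against msCol, where 3.50% of all genes tested passed, 1 target passed, SPL10. It was lower by 1.17 ± 0.35 on the log2 scale (edgeR adjusted p = 0.043). Its mean was 0.481 CPM in epiRILs, with 0.583 and 1.65 CPM in msCol12 and msCol16. The SPL10 call rested on msCol16, as the log2 difference was -0.30 without that library (edgeR adjusted p = 0.95) and -1.75 without msCol12 (edgeR adjusted p = 0.013). With library size as the only scaling it was -0.95 (edgeR adjusted p = 0.14).

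The sRNA of AGO1 lay downstream of the place where miR168 pairs. The best match to miR168a-5p in the AGO1 transcripts is in the coding sequence, at chr1:17891529-17891549 on the minus strand, and is printed 5′ to 3′ as RNA with the bases that lack a Watson-Crick partner in capitals, to show how the member and its target meet.
AGO1 site: uucccgaGcugcaUcaagcUa
These 3 bases face positions 2, 8 and 14 of miR168a-5p, counted from its 5′ end. The 6 windows before the window with the site held 3.07% of the AGO1 counts, the site window and the 9 windows after it held 73.9%, and the 20 windows further on held 23.0%. In the site window and the 9 after it, epiHybrids had 11.5 ± 2.01 CPM and epiRILs 9.50 ± 1.79 CPM (SD, n = 36 each), with 9.98 and 16.2 CPM in msCol12 and msCol16, and the epiHybrid was higher in 29 of 36 families. In the 6 windows before the site it was higher in 17 of 36 families, at 0.426 ± 0.173 CPM in epiHybrids and 0.444 ± 0.163 CPM in epiRILs.

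**Figure D5:**
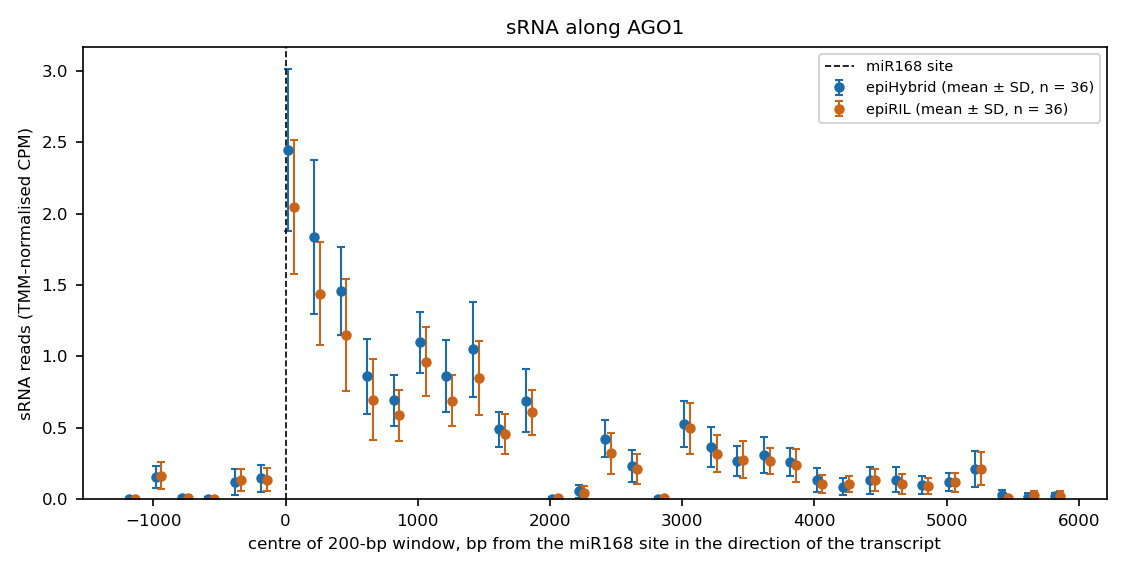
TMM-normalised CPM in non-overlapping 200-bp windows along AGO1 (mean and SD of 36 epiHybrids and 36 epiRILs), by distance in bp of the window centre from the miR168 site in the direction of the transcript. Counts are near 0 before the site, highest in the site window (2.45 CPM in epiHybrids and 2.05 CPM in epiRILs) and lower in every later window.

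Within each group, lines with more MIR168A reads also had more AGO1 sRNA. In epiHybrids r was 0.51 (permutation p = 0.0016, adjusted p = 0.0049 over the 3 relations computed; rho = 0.53, adjusted p = 0.0034), and in epiRILs r was 0.45 (permutation p = 0.0063, adjusted p = 0.0095; rho = 0.42, adjusted p = 0.01). The log2 ratios of epiHybrid to epiRIL were also related over the families (r = 0.38, permutation p = 0.022, adjusted p = 0.022; rho = 0.47, adjusted p = 0.0067). Without the 2 points farthest from the median of MIR168A, r was 0.48, 0.44 and 0.41, and without families 12 and 568 it was 0.58, 0.46 and 0.42 in the same order. The pair was examined after the results at both genes had been seen, and both counts share the library and its scaling. The relation between lines thus ran in the opposite direction to the difference between the groups, where MIR168A was lower and AGO1 sRNA higher in epiHybrids than in epiRILs.

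How repeatable the placement of reads was could be seen, because the authors counted each sequence context in a run of its own. Many windows stand in more than 1 of the 3 tables. The runs used the same aligner and genome, so equal counts cannot show that reads were placed at the locus they came from. A window of MIR167A with only the 3p arm, a sequence with 1 copy, had the same count in the CHG and CHH tables in 74 of 74 libraries. The windows with only the single-copy 3p arm of MIR168A agreed in 40 (CHG) and 32 (CG) of 74 libraries and differed by at most 3 counts, and windows of the single-copy MIR161 agreed in 49 to 74. Windows with miR167a-5p, which has 2 copies, differed from the CHH table in 74 of 74 libraries in both other tables, by at most 0.121% of the count. At MIR156A the window with only the 3p arm agreed in 71 of 74 libraries, and the windows with the 5p arm in 6 of 74, with a difference of up to 26 counts. The single-copy miR159a was not free of such differences, as its window differed between the CG and CHH tables in all 74 libraries, by up to 217 counts or 0.101%. At MIR156A the 26 counts compare with a mean of 32.4 counts in the window with only the 5p arm, where the difference reached 200% of a library's count, and with 138.9 counts in windows with both arms, where it reached 18.2%.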

How the data were processed

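Total RNA of pooled rosettes was made into sRNA libraries, 1 for each of 36 epiHybrids, 36 epiRILs and 2 msCol plants. Per the study's methods, the authors used ShortStack on TAIR10 (default parameters, MIRNA search disabled; version and treatment of multi-mapping reads not given in the sources used here) and deposited raw read counts of all lengths for 200-bp windows at 50-bp steps, with a separate run and table for CG, CHG and CHH contexts. A read across a window edge counts in both windows, which placed the sum of the 2 windows of MIR161 at 1.3% above its highest single window. No normalisation had been applied to these counts.

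Counts of non-overlapping CHH windows were summed per annotated gene (RefSeq TAIR10.1), genes below a mean of 2 counts were dropped, and edgeR 4.0.16 (R 4.3.3) was used with TMM factors, glmQLFit and glmQLFTest, and Benjamini-Hochberg adjustment over all genes tested at a threshold of 0.05. The model for epiHybrid against epiRIL carried a family block, because the line numbers pair child and father. Over 8730 windows, 35 of 36 epiHybrids correlated best with their own father. Comparisons with msCol and with the mean of the parental log2 levels came from 1 model of all 74 libraries, in which the 2 msCol libraries borrow the spread of the others. That model had no family block, so it did not use the pairing of epiHybrid and father. Correlations used log2(CPM + 0.5) and 100000 permutations, two-sided. Simulated data held 10000 genes and no differences between families, and the changed genes were drawn from those with a mean of at least 20 counts. The shares recovered therefore do not cover genes with lower counts. There, 88 of 100 genes changed by 2-fold were recovered for epiHybrids against epiRILs and 14 of 100 for epiRILs against msCol. For epiHybrids, 24 of 100 were recovered against msCol and 69 of 100 against the mid-parent value. Of genes changed by 1.25-fold, 26 of 100 were recovered for epiHybrids against epiRILs and 7 of 100 against the mid-parent value. Against msCol, 0 of 100 were recovered for epiRILs and 0 of 100 for epiHybrids, so changes of this size are mostly missed there. DESeq2 1.42.0, other scalings, the other tables and the omission of libraries served as alternatives.

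All 7 genes were named with values. Of their relatives, targets and the machinery, those that passed or had the highest counts were named, and the 3 genes most correlated with a member (mean of at least 20 counts, more than 1 kb away). The members and lists were chosen with earlier results of these data known. Maternal identity within families (msCol12 or msCol16) was not used here.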

Additional observations from a re-analysis of the deposited data

How the results depend on the processing

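Between epiHybrids and epiRILs, 1239 genes passed, against 802 with the CHG table, 1879 with DESeq2 and 815 without the family block. Of the 7 genes 1 passed (MIR168A), against 0 with the CG table, the CHG table, library size as the only scaling, library size without structural RNA and microRNA windows, or no pairing by family block, and 2 without families 12 and 568. Without those families MIR319A turned to 0.02 and the arm ratio of MIR166A to -0.01 on the log2 scale. For epiRILs against msCol the count of genes was 1020, against 525 (CG), 395 (CHG) and 665 (library size only), and 224 to 877 when 1 msCol library was left out, the lowest without msCol16. For epiHybrids against msCol it was 736, against 342 (CG), 234 (CHG), 432 (library size only), 470 (library size without structural RNA and microRNA windows) and 1147 (median-of-ratios), and 133 to 734 with 1 msCol library left out, the lowest without msCol16. Against the mid-parent value it was 392, against 192 (CG), 129 (CHG), 707 (DESeq2) and 711 (median-of-ratios), and 91 to 485 with 1 msCol library left out, the lowest without msCol16. There, 1 of the 7 genes passed with library size only and with library size without structural RNA and microRNA windows, MIR159A in both. Pairs of genes past the threshold in epiRILs numbered 2, and 0 with library size only. The cause of these changes was not tested. Scaling by library size moved the median of the 7 log2 values by 0.05 between epiHybrids and epiRILs, 0.18 for epiRILs against msCol, 0.23 for epiHybrids against msCol and 0.14 against the mid-parent value. With it the higher and lower calls were 935 and 437 in place of 590 and 649, 266 and 399 in place of 205 and 815, 237 and 195 in place of 116 and 620, and 257 and 105 in place of 97 and 295. Median-of-ratios scaling gave 99 higher and 612 lower calls in the last comparison. With library size without structural RNA and microRNA windows they were 971 and 476, 311 and 385, 276 and 194, and 287 and 105. Of the windows that were summed, those of MIR159A are not in the CG and CHG tables, that of MIR156A not in the CG table and those of MIR319A not in the CHG table, so these alternatives gave no value there. Only 2 msCol libraries limit every comparison with the mother, and counts of 91 to 261 in epiHybrids and 71 to 199 in epiRILs limit MIR156A.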
